A study of Mus musculus with 9 samples.

Results

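The Hox genes examined here are 38 of the homeobox genes that lie in the 4 mouse clusters Hoxa, Hoxb, Hoxc and Hoxd, out of 21887 protein-coding genes. They were chosen by name, with the peak counts of the 3 cell lines over the clusters already known, so the lines are compared over the clusters as a description, with no test. The data are ATAC-seq peak lists from 9 libraries of E14 mouse embryonic stem cells of the variant named TOT2N. ATAC-seq marks open chromatin by the places where the Tn5 transposase can insert into DNA. The TetR-MYBTA line carried a stably integrated TetR-MYBTA construct, the TetR line a stably integrated TetR construct, and the WT line neither, with 3 libraries each. TetR is the bacterial tetracycline repressor, a DNA-binding protein, and MYB is a transcription factor best known from blood-forming cells. The sources used here do not give the promoters driving the constructs or whether a line is 1 clone. The labels do not state whether each library had its own culture, and the p-values are set against a spread among libraries that may be technical only.

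Hox proteins are transcription factors that give cells their position along the body axis. The genes of a cluster lie in the order in which they act, from low paralogue numbers at the 3′ end, used towards the head, to high numbers at the 5′ end, used towards the tail and in the limbs. In embryonic stem cells the clusters are known to be held silent by Polycomb complexes, which modify histones over CpG-rich DNA, while trithorax complexes keep the genes ready for later use. HOX proteins bind DNA together with cofactors of the TALE class, and retinoic acid and the Cdx factors are known to start their expression.

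Each cluster was taken from the first to the last of its 38 genes, in mm10 coordinates. Hoxa, with 10 genes, spans chromosome 6 from 52162417 to 52260880. Hoxb, with 10 genes, spans chromosome 11 from 96194316 to 96368254. Hoxc, with 9 genes, spans chromosome 15 from 102921131 to 103036856, and Hoxd, with 9 genes, spans chromosome 2 from 74668225 to 74765142. A window of the cluster plus 50 kb on either side was used for counting.

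The following upstream sequences are shown because they lie at the Hoxd starts where peaks were called most often, and they differ in how many TetR-MYBTA libraries had a peak. Each gives the 250 bases before a gene start, 5′ to 3′ on the plus strand of chromosome 2, from RefSeq for GRCm38.p6, the assembly of mm10. Capitals mark matches to AACNG, the core letters of the MYB binding site, on either strand; the Hoxd11 stretch has none.
Hoxd13 (chr2:74667975-74668224): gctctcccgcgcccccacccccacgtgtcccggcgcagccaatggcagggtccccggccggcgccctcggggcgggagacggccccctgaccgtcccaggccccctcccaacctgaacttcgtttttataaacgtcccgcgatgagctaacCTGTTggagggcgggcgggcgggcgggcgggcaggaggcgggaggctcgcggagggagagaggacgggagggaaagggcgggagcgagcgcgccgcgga
Hoxd11, the start nearer the 3′ end of the cluster (chr2:74682073-74682322): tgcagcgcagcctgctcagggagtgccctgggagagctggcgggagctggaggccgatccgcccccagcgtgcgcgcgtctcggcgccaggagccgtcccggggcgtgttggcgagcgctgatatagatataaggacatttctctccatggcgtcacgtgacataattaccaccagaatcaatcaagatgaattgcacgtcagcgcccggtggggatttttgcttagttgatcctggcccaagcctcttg
Hoxd10 (chr2:74691641-74691890): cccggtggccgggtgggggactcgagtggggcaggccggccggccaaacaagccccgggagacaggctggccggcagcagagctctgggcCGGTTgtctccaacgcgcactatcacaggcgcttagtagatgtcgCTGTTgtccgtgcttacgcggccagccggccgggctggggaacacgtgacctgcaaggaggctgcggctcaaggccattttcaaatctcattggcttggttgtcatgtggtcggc
Hoxd1 (chr2:74762730-74762979): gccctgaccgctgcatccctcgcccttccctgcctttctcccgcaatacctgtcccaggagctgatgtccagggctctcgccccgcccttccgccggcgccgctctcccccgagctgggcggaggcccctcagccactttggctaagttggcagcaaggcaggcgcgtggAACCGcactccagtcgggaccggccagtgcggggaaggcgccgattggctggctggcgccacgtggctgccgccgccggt
Including the first 50 bases after the start, a peak overlapped the Hoxd13 promoter in 0 TetR-MYBTA, 3 TetR and 2 WT libraries. It overlapped the Hoxd11 promoter in 1 TetR-MYBTA, 1 TetR and 3 WT libraries, and the Hoxd10 and Hoxd1 promoters in 2 TetR-MYBTA, 3 TetR and 3 WT libraries each.

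The table of promoters held 24 starts of 22 of the 38 Hox genes. Of these, 7 had a peak in at least 1 library: those of Hoxa5, Hoxa13, Hoxd1, Hoxd9, Hoxd10, Hoxd11 and Hoxd13. These 7 were rich in G and C, from 60.4 to 80.0% with a median of 65.6%, and held 13 to 35 CpG pairs. The 17 starts without a peak ranged from 40.4 to 65.2% with a median of 52.0%, and held 2 to 24 CpG pairs. The letters AACNG occurred in 18 of the 24 Hox upstream sequences (75%), against 73.1% of all 21263 upstream sequences of protein-coding genes, in 5 of the 7 with a peak and in 13 of the 17 without. A peak overlapped 3, 2 and 1 of the 24 Hox promoters in TetR-MYBTA libraries 1 to 3, 6, 3 and 4 in TetR and 4, 7 and 5 in WT. The mean share of Hox promoters with a peak was 8.33% for TetR-MYBTA, 18.1% for TetR and 22.2% for WT. Over all protein-coding promoters the means were 39.2% for TetR-MYBTA and 42.5% for both TetR and WT, so in each line the Hox share was the smaller.

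The peaks over the Hox clusters were fewest in TetR-MYBTA. The 4 windows together held 18, 19 and 13 peaks in the TetR-MYBTA libraries, 52, 43 and 29 in the TetR libraries and 44, 45 and 38 in the WT libraries. Every TetR-MYBTA library thus lay below all 6 others. As a share of all peaks of a library the windows held 0.0308 ± 0.00235% for TetR-MYBTA, 0.0629 ± 0.0125% for TetR and 0.0709 ± 0.00698% for WT (SD, n = 3 each), a ratio of 0.460 between TetR-MYBTA and the mean of the other 6 libraries.

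The 4 clusters did not share this equally. Over Hoxd, whose 5′ genes pattern digits and forearm, there were 2, 4 and 2 peaks in TetR-MYBTA, 18, 12 and 9 in TetR and 14, 12 and 12 in WT. Over Hoxc, there were 5, 4 and 2 peaks in TetR-MYBTA, 13, 13 and 8 in TetR and 11, 9 and 10 in WT. Over Hoxa, there were 6, 6 and 4 peaks in TetR-MYBTA, 15, 13 and 9 in TetR and 9, 12 and 9 in WT. In these 3 clusters every TetR-MYBTA library lay below the other 6, with ratios of the peak share of 0.241 for Hoxd, 0.388 for Hoxc and 0.554 for Hoxa. When each list was shortened to 45136 rows, the length of the shortest, Hoxd held 1, 2 and 2 peaks in TetR-MYBTA, 8, 8 and 5 in TetR and 10, 8 and 10 in WT. Hoxa then held 4, 3 and 4 in TetR-MYBTA, 6, 5 and 7 in TetR and 6, 8 and 6 in WT. Hoxc no longer separated, with 3, 2 and 2 in TetR-MYBTA, 6, 8 and 6 in TetR and 7, 4 and 3 in WT. As background for the full lists, 13.1% of 7597 windows of 200 kb over the genome had all 3 TetR-MYBTA peak counts below all 6 others. In the same windows the ratio of peak shares had a median of 0.985, and it was under 0.5 in 4.34% of them. No such background was counted for lists of equal length.

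Hoxb behaved otherwise. It held 5 peaks in each TetR-MYBTA library, 6, 5 and 3 in TetR and 10, 12 and 7 in WT, so TetR-MYBTA lay within the range of TetR. The share ratio of 0.811 became 1.25 in lists of equal length and 1.03 with a margin of 100 kb. It fell to 0.638 as a share of the peaks on chromosome 11, a setting added after seeing the data. With their own chromosomes Hoxa, Hoxc and Hoxd gave 0.585, 0.407 and 0.256.

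**Figure D1:**
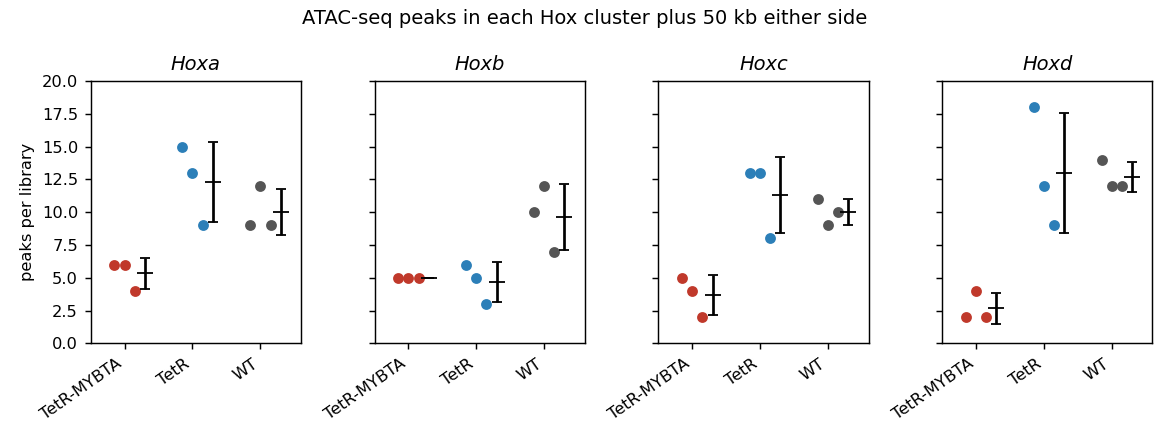
Number of ATAC-seq peaks per library (vertical axis) in each Hox cluster plus 50 kb either side, for TetR-MYBTA, TetR and WT. Points are libraries, and bars give mean and SD of 3 libraries; TetR-MYBTA lies below all other libraries over Hoxa, Hoxc and Hoxd, with 2 to 6 peaks, while over Hoxb its 5 peaks fall within the range of TetR.

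TetR-MYBTA lists were shorter on average, and their tags fell less often in peaks. They held 59675, 56917 and 45136 peaks, with 7.57, 7.44 and 5.48% of tags in peaks. TetR had 70230, 65957 and 58762 peaks with 9.78, 9.72 and 9.3% of tags in peaks, and WT had 56612, 63098 and 59575 peaks with 7.84, 8.09 and 7.79%. In lists of equal length the Hox windows held 9, 11 and 13 peaks in TetR-MYBTA, 21, 23 and 19 in TetR and 29, 22 and 23 in WT, so TetR-MYBTA still lay below the others. How often windows elsewhere in the genome separate at that length was not counted. Rows of a list cycle through the chromosomes in passes, and the shortening fell inside such a pass. Keeping that whole pass gave 9, 13 and 13 peaks in TetR-MYBTA, 22, 23 and 19 in TetR and 29, 24 and 23 in WT, and dropping it gave 9, 9 and 13 in TetR-MYBTA, 21, 23 and 17 in TetR and 28, 21 and 22 in WT. The part of tag enrichment in the difference was not tested. In whole cultures, fewer cells with an open site and less opening per cell cannot be told apart.

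Most Hox peaks stood in the lower 50% of the lists. The place of a peak is given as a percentile of its list, 100 being the first row. Row order is taken here as an order of strength, which the files used here do not state. One pass through the chromosomes took up to 3.76 to 5.10% of a list, so finer differences in place cannot be read. The median place of the Hox window peaks was 23.7, 22.4 and 28.8 in TetR-MYBTA, 31.4, 34.7 and 34.0 in TetR and 26.8, 28.2 and 31.6 in WT. The upper 50% of the lists held 2, 4 and 2 Hox peaks in TetR-MYBTA, 12, 11 and 8 in TetR and 7, 11 and 8 in WT. Over Hoxd the upper 50% held 0 peaks in every TetR-MYBTA library, 5, 3 and 1 in TetR and 3 in each WT library. Separation of other windows within the upper 50% was not counted.

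**Figure D2:**
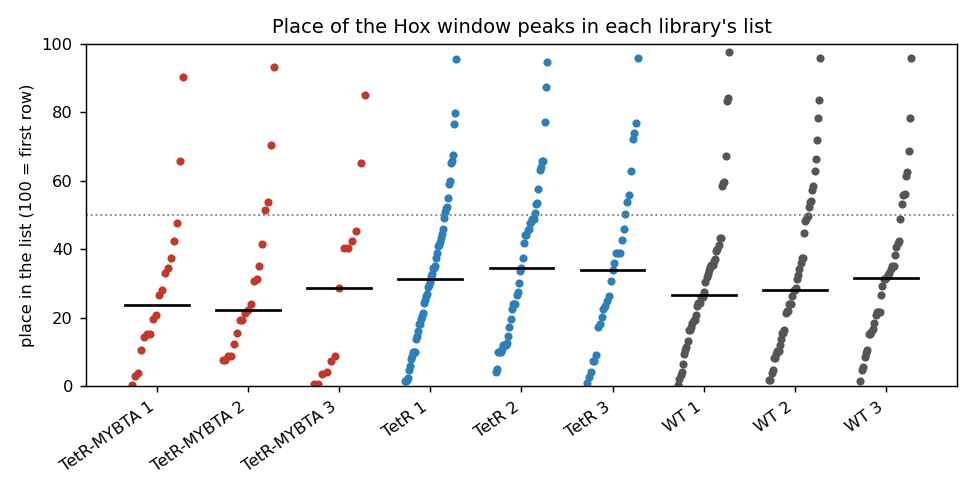
Place in the peak list (vertical axis, percentile of rows, 100 being the first row) of each region in the 4 Hox windows, by library, with TetR-MYBTA on the left. Each point is the best-placed peak of a region, the black line is the median over all Hox window peaks and the dotted line marks 50; medians lie between 22.4 and 34.7 in all 9 libraries.

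Gene by gene, 8 of the 38 Hox genes had no peak within 1 kb in any library: Hoxa2, Hoxb1, Hoxb5, Hoxb6, Hoxb7, Hoxb13, Hoxd4 and Hoxd12. Another 9 had one in 1 or 2 libraries: Hoxa6, Hoxa9, Hoxa11, Hoxb4, Hoxb8, Hoxc4, Hoxc8, Hoxc9 and Hoxc12. The other 21 had a peak in 3 libraries or more. Per library 10, 8 and 7 Hox genes had a peak in TetR-MYBTA, 22, 21 and 15 in TetR and 21, 22 and 17 in WT. That is 21.9 ± 4.02% of the 38 for TetR-MYBTA, 50.9 ± 9.96% for TetR and 52.6 ± 6.96% for WT (SD, n = 3 each), whereas over all protein-coding genes the means were 64.0% for TetR-MYBTA, 68.5% for TetR and 68.7% for WT. In lists of equal length 4, 5 and 7 Hox genes had a peak in TetR-MYBTA, 11, 10 and 9 in TetR and 15, 12 and 14 in WT. The share of all protein-coding genes was not counted at that length, so this gap has no background beside it.

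A peak was found in a smaller share of TetR-MYBTA libraries than of the other 6 at 26 of the 38 Hox genes (68.4%), against 13.1% of all protein-coding genes. The opposite held at 1 Hox gene, Hoxb2, against 3.37% of all genes. A gene open in all 9 libraries can count in neither direction, and 57.1% of all genes were so, but only 3 Hox genes: Hoxa3, Hoxb3 and Hoxc13. Nor can a gene with no peak in any library, as were 8 Hox genes. Among genes that did count, the TetR-MYBTA share was smaller at 26 Hox genes and larger at 1. Over all genes it was smaller at 2874 and larger at 737.

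Along the clusters, TetR-MYBTA and TetR libraries overlapped at the 3′ genes and not further on; the difference between positions was not tested. Of the 11 Hox genes with paralogue numbers 1 to 4, 4, 5 and 4 had a peak in TetR-MYBTA, 5, 6 and 4 in TetR and 6, 7 and 6 in WT. TetR overlapped both other lines here, while TetR-MYBTA lay below WT. Of the 11 genes numbered 5 to 8, which act in the neck and trunk, 1, 0 and 0 had a peak in TetR-MYBTA, 6, 4 and 3 in TetR and 6, 5 and 3 in WT. Of the 16 genes numbered 9 to 13, which act in the lower trunk, tail and limbs, 5, 3 and 3 had a peak in TetR-MYBTA, 11, 11 and 8 in TetR and 9, 10 and 8 in WT. For the groups 5 to 8 and 9 to 13 every TetR-MYBTA library lay below the other 6. Over all protein-coding genes the libraries separated too, with a peak at 61.4 to 65.7% of genes in TetR-MYBTA and 67.1 to 69.6% in TetR and WT, so the separation is not particular to these groups. Genes overlap here, since RefSeq extends Hoxa3 across Hoxa4, Hoxa5 and Hoxa6, Hoxb3 across Hoxb4, and Hoxd3 across Hoxd4. Hoxd10 and Hoxd11 overlap in part. A single peak can therefore count for several genes. Hoxa3, Hoxb3 and Hoxd3 are also the longest of the Hox genes examined, which gives them more room for a peak. Gene length was not adjusted for.

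**Figure D3:**
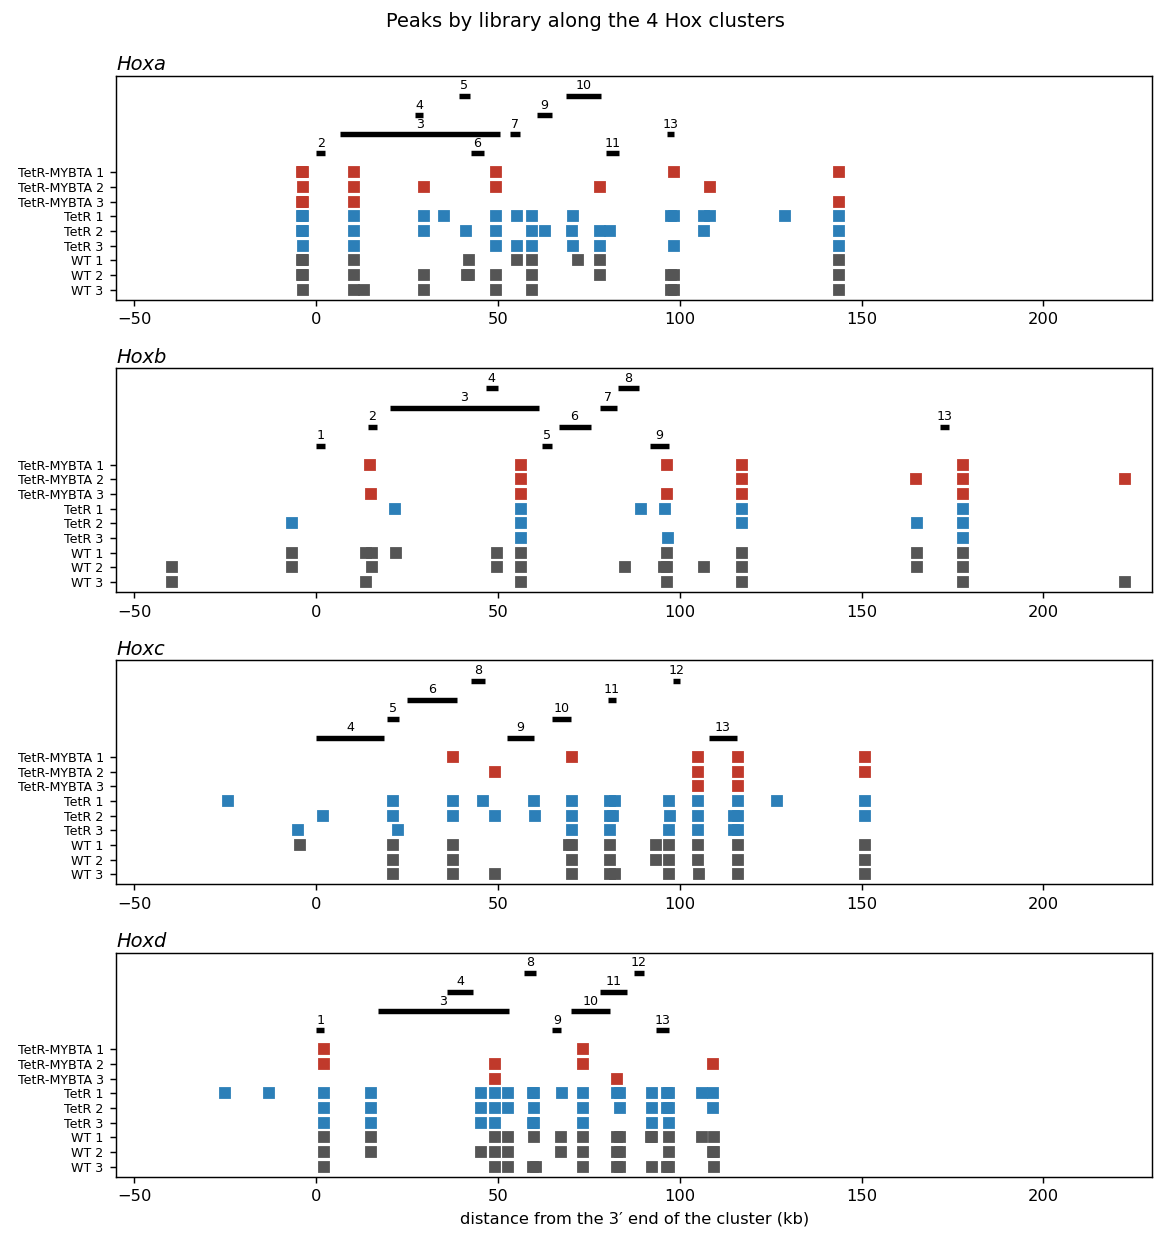
Peaks along the 4 Hox clusters by library, with TetR-MYBTA above TetR and WT. The horizontal axis is the distance in kb from the 3′ end of the cluster, squares are regions with a peak in that library and black bars are genes labelled by paralogue number; TetR-MYBTA libraries hold fewer squares than the others over Hoxa, Hoxc and Hoxd.

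At the 3′ genes, Hoxa3, which is needed for the thymus and parathyroid, and Hoxb3, a hindbrain gene, had peaks in all 9 libraries. Hoxd1 and Hoxd3, which takes part in shaping the first neck vertebra, had a peak in 2 TetR-MYBTA, 3 TetR and 3 WT libraries each. Hoxa4 had one in 1, 2 and 2 libraries of TetR-MYBTA, TetR and WT. Hoxb2, a regulator of hindbrain motor neurons, had one in 2 TetR-MYBTA libraries, in no TetR library and in all 3 WT libraries. The 2 TetR-MYBTA peaks at Hoxb2 (chromosome 11, 96353076 to 96353274 and 96353280 to 96353473) overlapped neither each other nor a WT peak. The WT peaks lay at 96352672 to 96352939 in 2 libraries and at 96354447 to 96354682 in 2.

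At the middle genes, Hoxc5 had a peak in no TetR-MYBTA library and in all 3 libraries of both TetR and WT. The peaks were not at 1 site. They lay at 103015488 to 103015750 on chromosome 15 in 2 TetR and 3 WT libraries, and at 103014286 to 103014483 in TetR library 3. Hoxd8 had one in 0 TetR-MYBTA, 3 TetR and 2 WT libraries, Hoxc6 in 1, 2 and 3 of those lines, Hoxa5, a gene of lung development, in 0, 1 and 2, and Hoxa7 in 0, 2 and 1. Each of these 5 genes was open in fewer TetR-MYBTA libraries than in either other line, but the naming rule bears on this. Genes with 0 TetR-MYBTA libraries could be named only through their TetR and WT peaks. Of the middle genes not named by the rule, Hoxa6 had a peak in 0, 0 and 2 libraries of TetR-MYBTA, TetR and WT. Hoxc8 had one in 0, 1 and 0, Hoxb8 in 0, 1 and 1, and Hoxb5, Hoxb6 and Hoxb7 in none.

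At the 5′ genes, Hoxc11 and Hoxd13, a gene of digit formation, had a peak in no TetR-MYBTA library and in all 6 others. At Hoxd13 the peaks within 1 kb numbered 0 in each TetR-MYBTA library, 2, 2 and 1 in TetR and 1, 1 and 2 in WT. Hoxc10 had a peak in 1 TetR-MYBTA, 3 TetR and 3 WT libraries, Hoxd10 in 2, 3 and 3, Hoxa10 in 1, 3 and 2, Hoxd11, which patterns the forearm together with Hoxa11, in 1, 2 and 3, Hoxa13 in 1, 2 and 2, and Hoxd9 in 0, 1 and 2. Hoxb9 had one in 2, 2 and 3 libraries. Hoxc13, a hair follicle gene, was the exception at this end, with a peak in all 9.

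Thus 3 of the 38 Hox genes (7.89%), Hoxc5, Hoxc11 and Hoxd13, had a peak in all 6 TetR and WT libraries and in no TetR-MYBTA library, against 0.608% of all protein-coding genes. No Hox gene had one in all TetR-MYBTA libraries and in none of the others, against 0.0731% of all genes. With Hoxd8, 4 Hox genes were open in all 3 TetR and no TetR-MYBTA libraries, against 1.29% of all genes, and 3 in all 3 WT and no TetR-MYBTA libraries, against 1.31%.

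**Figure D4:**
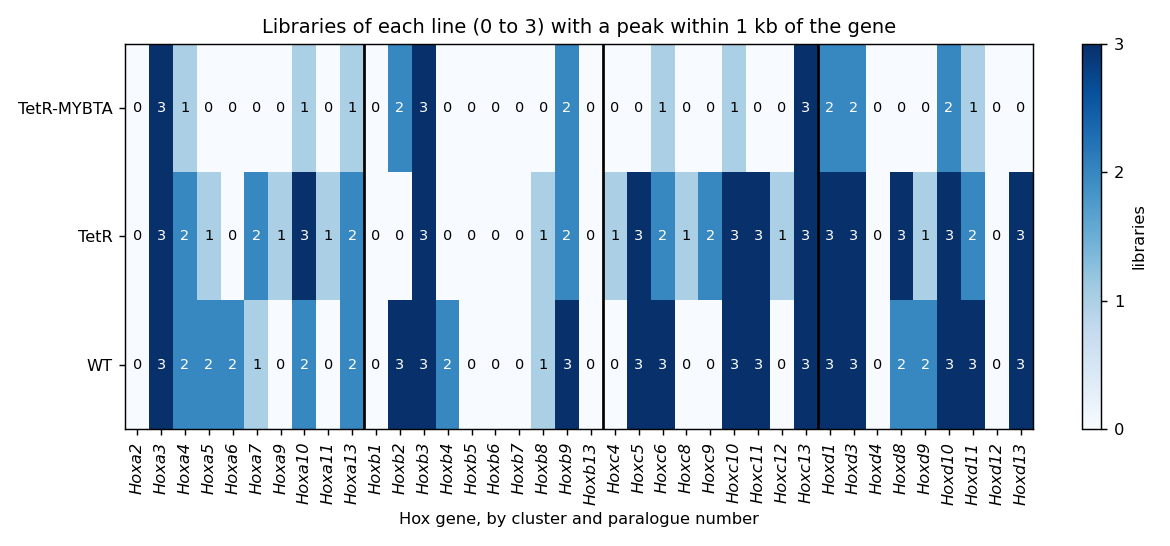
Number of libraries of each line, from 0 to 3, with a peak within 1 kb of each of the 38 Hox genes. Columns are genes in cluster and paralogue order and rows are TetR-MYBTA, TetR and WT; Hoxc5, Hoxc11 and Hoxd13 read 0 in TetR-MYBTA and 3 in the other lines, and Hoxb2 reads 2, 0 and 3.

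Merging all peaks that shared at least 1 bp gave 93 regions in the Hox windows, of 116362 over the genome. TetR-MYBTA had a peak in 28 of the 93 in at least 1 library, TetR in 68 and WT in 63, and 38 regions were seen in a single library. All 3 libraries of the line had a peak in 7 regions for TetR-MYBTA, 19 for TetR and 23 for WT. Regions with a peak in all 9 libraries numbered 5 (5.38%), against 22.4% of all regions. Hoxd held none of them. A smaller share of TetR-MYBTA than of other libraries had a peak at 78 regions (83.9%), against 48% of all regions, and a larger share at 8 (8.60%), against 25.2%.

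The highest placed of the described regions found in all 9 libraries lay at Hoxc13. It was 0.194 kb outside the gene (chromosome 15, 102920680 to 102920937) and stood at percentiles 90.2, 93.3 and 85.1 in TetR-MYBTA, 95.6, 94.7 and 95.8 in TetR and 97.5, 95.9 and 96.0 in WT. The region 3.82 kb from Hoxb13 (chromosome 11, 96190200 to 96190497) stood at 65.9, 70.4 and 40.3 in TetR-MYBTA, 76.7, 77.2 and 77.0 in TetR and 83.5, 78.3 and 78.5 in WT. At the region near Hoxb13 every TetR-MYBTA library was placed lower than every other library, by more than the width of a pass. How often regions elsewhere in the genome separate by place in this way was not counted. The region inside Hoxa3 (chromosome 6, 52172529 to 52172825) stood at 37.4, 53.8 and 28.8 in TetR-MYBTA, 65.8, 64.0 and 72.3 in TetR and 59.4, 58.5 and 31.4 in WT. TetR was placed above TetR-MYBTA there, and TetR-MYBTA and WT overlapped. The lowest TetR place (64.0) and the highest WT place (59.4) lay closer than the widest pass of 5.10%, so their order cannot be read. The region inside Hoxb3 (chromosome 11, 96311698 to 96312080) stood at 19.6, 51.4 and 45.5 in TetR-MYBTA, 1.90, 19.8 and 17.2 in TetR and 27.5, 1.91 and 33.0 in WT, and each pair of lines overlapped.

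Of the regions, 3 had a peak in all 6 TetR and WT libraries and in no TetR-MYBTA library (3.23%, against 1.16% of all regions). A merged region can hold peaks that do not all overlap each other. One lay over the Hoxd13 promoter shown above (chromosome 2, 74667736 to 74668380), at percentiles 34.6, 41.8 and 54.0 in TetR and 39.7, 62.9 and 29.4 in WT. A peak reached that promoter itself in 3 TetR and 2 WT libraries. One lay inside Hoxc11 (chromosome 15, 102955834 to 102956397), at 25.2, 12.0 and 26.5 in TetR and 23.6, 24.2 and 21.6 in WT. The third lay between Hoxa7 and Hoxa9, 1.11 kb from Hoxa9 (chromosome 6, 52221699 to 52221982), at 52.0, 65.9 and 50.3 in TetR and 43.4, 52.4 and 55.8 in WT. These places ran from 12.0 to 65.9. Regions private to all 3 TetR-MYBTA libraries numbered 0 in the Hox windows, against 0.587% of all regions. Private to all 3 WT libraries was 1 region (1.08%, against 0.571% of all regions; chromosome 2, 74655493 to 74655720), 12.5 kb beyond Hoxd13 and inside Evx2, the homeobox gene next to that cluster.

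The regions open in all 6 TetR and WT libraries were compared with all other regions called that often. In the Hox windows there were 13, of which 3 (23.1%) had a peak in no TetR-MYBTA library, 1 in a single one, 4 in 2 and 5 (38.5%) in all 3. Over the genome 33750 regions met the same condition, of which 4% had no TetR-MYBTA peak and 77.1% had one in all 3. Among those with a mean TetR and WT percentile under 50, the shares without any TetR-MYBTA peak were 2 of 6 Hox regions and 12.3% of 8725 regions, and at percentiles of at least 50 they were 1 of 7 and 1.11% of 25025. The Hox regions in these classes are too few for a comparison of the shares.

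TetR and WT, the lines without MYBTA, are set side by side over the same windows. The 4 windows together held 0.0629% of TetR peaks and 0.0709% of WT peaks, a difference of -0.00808 percentage points. Hoxb differed most, with 0.00708 ± 0.00177% for TetR and 0.0161 ± 0.00387% for WT (SD, n = 3 each), a ratio of 0.438. All 3 TetR libraries lay below all 3 WT libraries there. Such a separation of peak shares was seen in 12.4% of the 200-kb windows of the genome. For Hoxa, Hoxc and Hoxd the ratios were 1.13, 1.03 and 0.926, and the lines overlapped. Hoxb2 was the 1 Hox gene with a peak in all 3 WT libraries and in no TetR library, against 0.334% of all genes, and no Hox gene showed the reverse, against 0.279%.

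The sequence outside the windows was not part of the choice of genes and was tested. Peaks lying 50 to 550 kb beyond either end of a cluster were counted for TetR-MYBTA against the other 6 libraries, by two-sided exact permutation tests adjusted over 5 comparisons. Around Hoxd there were 6, 2 and 5 in TetR-MYBTA, 13, 13 and 11 in TetR and 9, 12 and 8 in WT. As a share of peaks this was 0.00822% for TetR-MYBTA and 0.0175% for the other 6 libraries, a ratio of 0.468 (exact permutation p = 0.0119, adjusted p = 0.0198). Around Hoxa there were 11, 9 and 9 peaks in TetR-MYBTA, 23, 20 and 20 in TetR and 15, 17 and 19 in WT, or 0.0181% of TetR-MYBTA peaks against 0.0304% of TetR and WT peaks, a ratio of 0.594 (exact p = 0.0119, adjusted p = 0.0198). In both, every TetR-MYBTA library lay below the other 6. On the side of Hoxa2 there were 6, 6 and 5 peaks in TetR-MYBTA, 13, 13 and 12 in TetR and 11, 12 and 14 in WT. On the side of Hoxa13 there were 5, 3 and 4 in TetR-MYBTA, 10, 7 and 8 in TetR and 4, 5 and 5 in WT, so TetR-MYBTA and WT overlapped there.

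The flanks of the other clusters differed from this. Hoxc flanks held 0.0987% of TetR-MYBTA peaks and 0.0970% of the other libraries' peaks (exact p = 0.726). Hoxb flanks held more, with 0.0704% of TetR-MYBTA peaks against 0.0555% of the others', a ratio of 1.27 (exact p = 0.0119, adjusted p = 0.0198). As a share of the peaks on chromosome 11 the difference of TetR-MYBTA from the other 6 libraries turned to -0.00817 percentage points (exact test, adjusted p = 0.821). Hoxa and Hoxd flanks stayed lower as shares of their own chromosomes (-0.194 and -0.115 points, exact tests, adjusted p = 0.0298 each). Over all 4 clusters the flanks held 0.195% of TetR-MYBTA peaks and 0.200% of the others (exact p = 0.381), a difference of -0.00508 percentage points. It was -0.0199 in lists of equal length and -0.0380 with flanks of 1 Mb, both past the threshold (exact tests, adjusted p = 0.0397 each). In the upper 50% of the lists the Hoxa, Hoxb and Hoxd flank calls ended (exact tests, adjusted p = 0.0794 each). As background, of 2526 windows of 1 Mb, 21.4% had all 3 TetR-MYBTA shares below all 6 others and 23.2% had them above, so a separation of this kind was common, whereas a ratio under 0.5 occurred in 2.26% of those windows. The calls at the Hoxa, Hoxb and Hoxd flanks ended without any 1 of the TetR-MYBTA libraries (exact tests, adjusted p = 0.0595). With 2 against 6 libraries this is the smallest value reachable for 3 such calls, so their loss was fixed in advance. The call at Hoxb also ended without WT replicate 3 (exact test, adjusted p = 0.0595), where a smaller value could be reached.

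**Figure D5:**
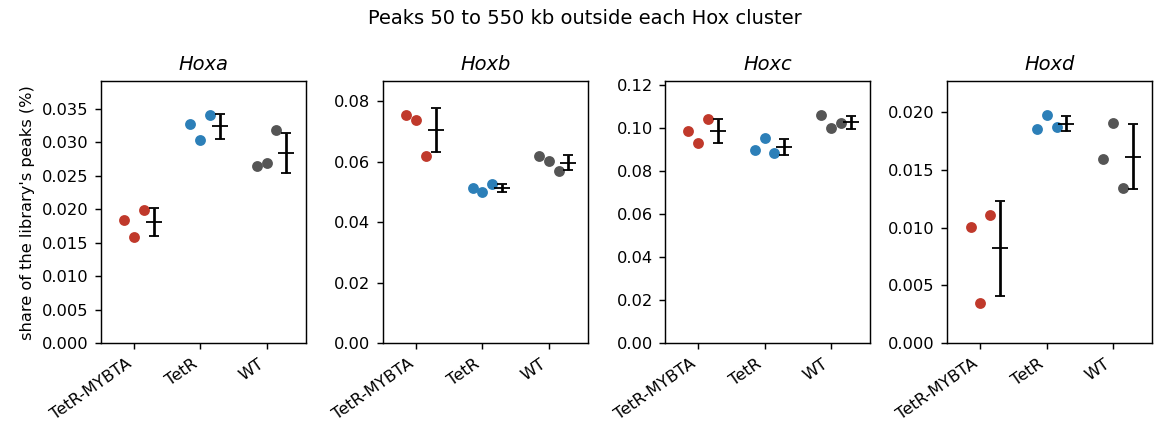
Share of each library's peaks (vertical axis, %) that lay 50 to 550 kb outside each Hox cluster, for TetR-MYBTA, TetR and WT; the axes start at 0 and differ in scale. Points are libraries and bars give mean and SD of 3 libraries; TetR-MYBTA lies below all others around Hoxa and Hoxd and above them around Hoxb.

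Genes that work with the Hox clusters were counted in the same way. Of the 9 TALE cofactor genes, 8 had a peak within 1 kb in all 9 libraries, as had 57.1% of all protein-coding genes. The same held for 11 of 12 genes of Polycomb complex PRC2, 19 of 20 of PRC1 and 8 of 10 trithorax genes. Fewer TetR-MYBTA than other libraries had a peak, as a share, at 1, 1, 0 and 0 genes of these lists. Of the 11 genes of retinoic acid signalling and the Cdx factors, 6 to 9 had a peak in TetR-MYBTA libraries, 10 to 11 in TetR and 9 to 11 in WT, and 6 of 11 had fewer in TetR-MYBTA. Of 42 other patterning homeobox genes, 24 to 28 had a peak in TetR-MYBTA, 34 to 35 in TetR and 33 to 35 in WT. As a share, fewer TetR-MYBTA libraries had one at 15 (35.7%) and more at 3 (7.14%, against 3.37% of all genes). The share of 35.7% is set beside 68.4% of the Hox genes and 13.1% of all genes, and the difference between the lists was not tested. In this last list Msx2 and Barhl2 had a peak in all 6 TetR and WT libraries and in none of TetR-MYBTA. Over all protein-coding genes 0.608% were so.

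Peaks within 1 kb of 8 marker genes of stem cells were counted. Of these 8 genes, 5 to 7 had a peak in TetR-MYBTA libraries, 7 to 8 in TetR and 6 to 7 in WT. Sox2, Esrrb, Klf4, Tfcp2l1 and Dppa5a had one in all 9, as had 57.1% of all protein-coding genes. Pou5f1 had a peak in 1 TetR-MYBTA, 3 TetR and 3 WT libraries, and Nanog in 0, 3 and 1. Zfp42 went the other way, with a peak in 2 TetR-MYBTA, 1 TetR and 1 WT libraries. Of 8 genes that mark differentiated cells, 4 to 5 had a peak in TetR-MYBTA, 6 to 8 in TetR and 6 to 7 in WT, and Sox17, Pax6 and Gata4 had one in all 9 libraries. Sox1, a marker of neural progenitors, had a peak in all 6 TetR and WT libraries and in none of TetR-MYBTA, as had 0.608% of all genes. The brachyury gene T had a peak in 0, 1 and 0 libraries of TetR-MYBTA, TetR and WT. A peak at a gene is not a measure of its expression, and the part of cell state in the Hox values was not tested.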

How the data were processed

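ATAC-seq was measured in 9 libraries, grouped by their titles. Reads were processed with HOMER 4.11, deepTools 3.5.5, Picard, Bowtie2, Trim Galore 0.6.10 and FastQC on mm10, per the submitters' processing notes; Tn5 offset and blacklist handling are not given in the sources used here. HOMER called peaks in each library without pooling or control, per the file headers, at a false discovery rate of 0.001, 4-fold over the local 10 kb. The deposited score column is constant at 1, so peaks were used as present or absent and ranked by row order. Total tags were 16.4 to 23.0 M per library, per the file headers; tags per peak were not used here, so no counting interval is given.

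Genes, promoters and coordinates came from RefSeq for GRCm38.p6; all 38 symbols matched. Shares of flank peaks were compared over libraries by two-sided exact permutation tests with Benjamini-Hochberg adjustment over 5 values (4 clusters and their sum); 3 against 6 libraries cannot go below p = 0.0119. The alternatives tried were a common list length, the upper 50% of rows, other margins and distances, chromosome denominators, a replicate block and leaving out each library. Named were genes with a peak in at least 3 libraries, or in all of 1 line and none of another, and regions found in all 9, missing in TetR-MYBTA or private to 1 line; 1 region of the Hoxa window is not reported here. The members and lists were chosen with earlier results of these data known. Counting was tested on simulated data. Python 3.11.15, numpy 2.4.6, pandas 2.3.3 and matplotlib 3.10.9 were used.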

Additional observations from a re-analysis of the deposited data

How the results depend on the processing

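The ratio of Hox window shares between TetR-MYBTA and the other 6 libraries was 0.460 for all 4 clusters. It was 0.327 in the upper 50% of each list, 0.385 with no margin and 0.601 with a margin of 100 kb. Hoxa gave 0.279, 0.381 and 0.677 under these settings, Hoxd gave 0 in the upper 50% and 0.399 with 100 kb, and Hoxc gave 0.275 with no margin. Hoxb turned to 1.25 in lists of equal length, 1.07 in the upper 50% and 1.03 with 100 kb, and was 0.638 as a share of its chromosome, a setting added after seeing the data. Leaving out a library gave 0.437 to 0.475 for all 4 clusters. The number of Hox genes with a peak, TetR-MYBTA minus the others, was -11.3 per library, -6.50 in lists of equal length, -3.33 in the upper 50%, -9.50 at 0 kb and -15.5 at 2.5 kb. Hox genes missing only in TetR-MYBTA numbered 3, 2 in lists of equal length, 0 in the upper 50% and 5 at 2.5 kb. Such regions numbered 3, or 9 when 2 of 3 TetR and WT libraries sufficed. The shares of all genes under these changed settings, and of all regions under the looser rule, were not counted. These counts therefore have no background.

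For TetR minus WT, Hoxa turned to -0.00148 percentage points in lists of equal length and the 4 clusters together to 0.00277 in the upper 50%. Leaving out a library gave -0.000830 to 0.00228 for Hoxc and -0.00454 to 0.000615 for Hoxd. For the flanks of all 4 clusters the difference was -0.0199 in lists of equal length and -0.0380 with flanks of 1 Mb (exact tests, adjusted p = 0.0397 each), where the main value of -0.00508 had not passed. Hoxb flanks did not pass in lists of equal length (0.00739), in the upper 50% (0.0135) or with flanks of 1 Mb (0.0197), and turned to -0.00817 as a share of the chromosome. Hoxa and Hoxd flanks did not pass in the upper 50% (-0.0108 and -0.00893, exact tests, adjusted p = 0.0794 each). Hoxc flanks turned to -0.00406 in lists of equal length and -0.00860 with flanks of 1 Mb. Leaving out a library gave -0.0133 to -0.0112 for Hoxa flanks, 0.0124 to 0.0191 for Hoxb, -0.000996 to 0.00451 for Hoxc and -0.0108 to -0.00698 for Hoxd. The cause of these changes was not tested, apart from leaving out libraries, which lowers the number of samples. With the replicate number as a block the flank differences of -0.0123 for Hoxa, 0.0149 for Hoxb and -0.00933 for Hoxd had an adjusted p of 0.0617, the smallest reachable there for 3 such values, and no other call changed. Same-numbered libraries did not deviate together (correlations from -0.0670 to 0.129 over 1-Mb windows). Presence near the calling threshold limits all single regions.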
